A study of Mus musculus with 2 samples.

Results

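The enzymes that hydroxylate proline and lysine in collagen were compared in sorted mouse B cells transduced either with miR-181b, a microRNA, or with a control retrovirus. The family consists of the catalytic alpha subunits of collagen prolyl 4-hydroxylase, encoded by P4ha1, P4ha2 and P4ha3, and the lysyl hydroxylases, encoded by Plod1, Plod2 and Plod3. All probes that the arrays assign to these 6 gene symbols were taken, which gave 9 of the 41174 probes and 6 of the 27670 gene names. The family was chosen by its enzymatic function, but after the ratio of P4ha2 on these same arrays was known, so the values below are a description of the RNA samples and no list is tested.

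Both groups were splenic B lymphocytes of C57BL/6 mice, isolated by removing CD43-bearing cells and grown with lipopolysaccharide at 25 µg/ml and interleukin-4 at 10 ng/ml. They were exposed to virus for 20 h with the carrier polybrene at 8 µg/ml, and cells positive for green fluorescent protein, encoded by either vector, were sorted after 2 days. RNA from 1 sample per vector, for which the number of mice is not given, was hybridised on 2 whole-genome arrays, with miR-181b RNA in the dye Cy5 on array 1 and in Cy3 on array 2. Both arrays repeat the same pair of RNAs, so their difference shows technical spread, no p-value is given, and the variation between cultures or mice was not measured. Throughout, a log2 ratio is miR-181b over control, as the mean of both arrays ± the deviation that each array shows from it. In such bulk RNA, fewer expressing cells and less RNA per cell cannot be told apart.

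Collagen prolyl 4-hydroxylase is a tetramer of alpha subunits, which carry the active site, and beta subunits, which are the protein disulfide isomerase P4hb. It hydroxylates proline residues in the endoplasmic reticulum, which stabilises the collagen triple helix. Lysyl hydroxylases act in the same compartment and prepare lysine residues for cross-links and for attached sugars. Both kinds of enzyme need oxygen, iron, 2-oxoglutarate and ascorbate, like the oxygen-sensing HIF prolyl hydroxylases, and P4ha1, P4ha2 and Plod2 are known from other cells as genes induced by hypoxia through HIF-1. B cells are not known as collagen producers, although collagen-like domains occur in other secreted proteins, and prolyl 4-hydroxylase has also been reported to modify the microRNA effector protein Argonaute 2.

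The microRNA carried by the vector is shown with its seed, bases 2 to 8, in capitals, as given by RefSeq (GRCm38.p6), where 2 genes give the same mature form.
mmu-miR-181b-5p: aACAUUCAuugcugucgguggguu
The first 30 of the 60 bases of each probe follow, in lower case throughout, because the ratios below are those of these probes. Where in its transcript each probe lies, in coding sequence or UTR, was not determined here.
P4ha1, brighter probe A_51_P458067: tggtaactaactagggcccagtcaggtctg
P4ha1, dimmer probe A_52_P593723: ttaatactcaatcaccacatgatgtaaaac
P4ha2, measured probe A_52_P663413: cagatatttcaggtagaagatgtctcagtg
P4ha2, probe of a cDNA clone A_52_P617707: aggcctcatttaggaaataacatgtcagtt
P4ha3 A_52_P220912: cgacttgaccagattctatgacaaggtact
Plod1 A_51_P320304: aggagatggaacactatggccagtggtctc
Plod2 A_51_P396570: ctgaaagcctgggattctgacgcctactgg
Plod3, brighter probe A_51_P372172: tgcccaccacccggggtactcgatacatca
Plod3, dimmer probe A_52_P207278: gcgtgtcttgattgaacaaaacaggaaggt
The motif TGAATGT, complementary to the seed, was searched in the sense of the whole probes. It occurred in 0 of these 9 probes and in 0.954% of all probes on the array. The transcripts outside the probes were not searched.

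Of the 6 genes, 5 were measured by 7 of the 9 probes. A probe counted as measured when its spots passed the scanner's background test in every channel. In the miR-181b cells 3 of these 5 genes were called lower, which required a mean ratio of at least 1.5-fold and 1 sign in the array pair. They were P4ha2, P4ha1 and Plod2, and 0 of the 5 were called higher. By the same rule 0.513% of all 17560 measured genes were called lower and 0.82% higher. Of the 5 genes, only P4ha2 was at least 2-fold lower with each array past 1.5-fold, which held for 0.0968% of measured genes. Plod1 and the brighter probe of Plod3, which stands for the gene, lay within 0.1 of 0. The family's median log2 ratio was -0.63, with -0.90 on array 1 and -0.36 on array 2, against -0.005 over all measured genes. That median is the value of Plod2, and because P4ha2 helped to choose the family, these counts are no evidence about the family as such.

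**Figure D1:**
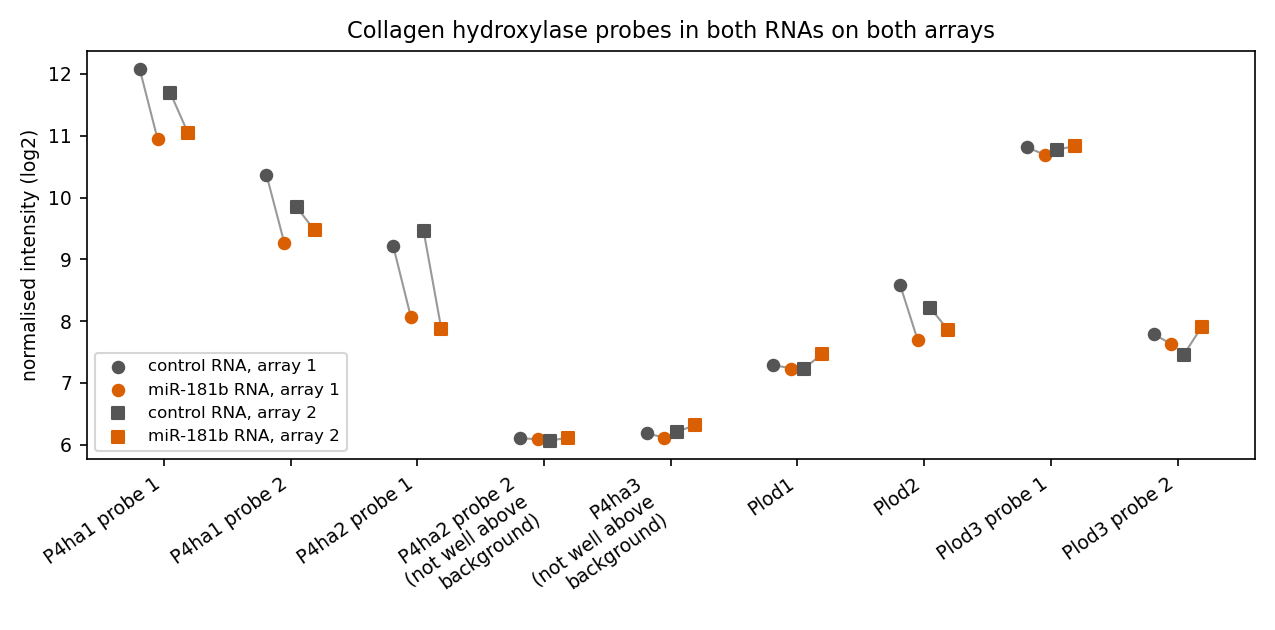
Normalised intensity (log2, vertical axis) of each of the 9 probes (probe 1 of a gene is the brighter) in control RNA (grey) and miR-181b RNA (orange), circles for array 1 and squares for array 2, with a line joining both RNAs of an array. The lines fall for P4ha1, P4ha2 and Plod2 on both arrays, by less than 1.5-fold on array 2 for Plod2 and the dimmer P4ha1 probe, and change direction between the arrays for Plod1 and Plod3. The probe of P4ha3 and the other probe of P4ha2 lie near 6 in all channels.

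Among the alpha subunits, P4ha2 had the lowest ratio. Its normalised log2 intensity was 9.22 and 9.46 in control RNA on arrays 1 and 2, and 8.06 and 7.87 in miR-181b RNA. Both miR-181b values lay below both control values, and the arrays differed little beside that gap. The log2 ratio was -1.16 on array 1 and -1.59 on array 2, with a mean of -1.37 ± 0.22, so the miR-181b RNA held 38.6% of the control level. The scanner software's own error of a ratio, converted to log2, was 0.241 on array 1 and 0.274 on array 2. The spot was dim in miR-181b RNA, with a signal over local background of 265.5 and 125.8, against 416.3 and 811.6 in control RNA. Without the offset that is added to each channel before logarithms, the mean ratio was -1.61, and from the scanner's processed signals it was -1.68. By mean ratio P4ha2 ranked 6 from the lowest of 17560 measured genes. These values come from 1 of its 2 probes. The other, designed on a cDNA clone, was not well above background in either RNA on either array, with a normalised log2 intensity between 6.07 and 6.12, and gave no ratio.

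P4ha1 encodes the alpha subunit of the main isoform of the enzyme in most tissues. Its brighter probe read 12.1 and 11.7 on the log2 scale in control RNA on arrays 1 and 2, and 10.95 and 11.05 in miR-181b RNA. Again the RNAs did not overlap. The log2 ratio was -1.12 on array 1 and -0.65 on array 2, with a mean of -0.89 ± 0.24, a level 1.85-fold lower and rank 27 from the lowest. The dimmer probe was also lower on both arrays, with -1.10 and -0.37 and a mean of -0.73 ± 0.36. The probes thus differed by 0.154 in their means, less than either probe differed from array to array. On array 2 alone the dimmer probe did not reach 1.5-fold.

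P4ha3, which encodes the remaining and less widely expressed alpha subunit, was not well above background in either RNA on either array. Its normalised log2 intensity lay between 6.12 and 6.32 in the 4 channels, near the level of the undetected P4ha2 probe. No ratio is given, and a difference at that level was not detectable.

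**Figure D2:**
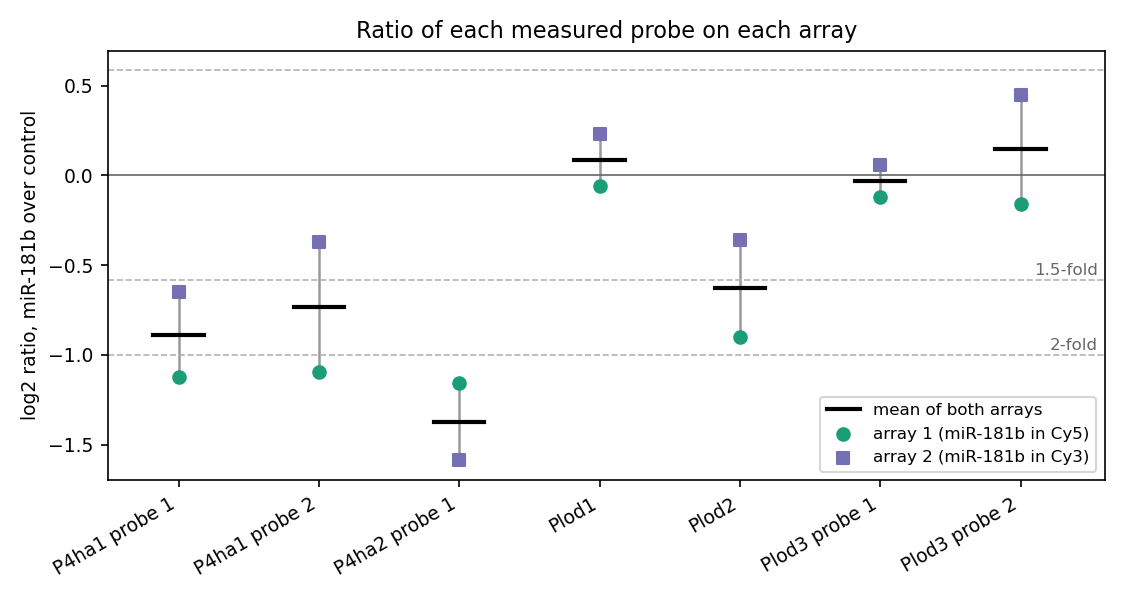
Log2 ratio of miR-181b over control (vertical axis) for each of the 7 measured probes, with a circle for array 1, a square for array 2 and a bar for their mean; dashed lines mark 1.5-fold in either direction and 2-fold lower, and probe 1 of a gene is the brighter. Both arrays lie below 0 for the probes of P4ha1, P4ha2 and Plod2, and on either side of 0 for Plod1 and both probes of Plod3.

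Among the lysyl hydroxylases only Plod2, whose product modifies lysines in the end regions of collagen, passed 1.5-fold. Its log2 intensity was 8.59 and 8.21 in control RNA on arrays 1 and 2, and 7.69 and 7.85 in miR-181b RNA. All miR-181b values were lower, but the gap between the nearest values was small. The ratio was -0.90 on array 1 and -0.36 on array 2, with a mean of -0.63 ± 0.27, which is 1.55-fold lower and rank 74. On array 2 alone Plod2 was below the 1.5-fold limit, so its place among the lower genes rests on array 1. The spot was dim, with a signal over local background of 251 and 297 in control RNA and 185 and 125 in miR-181b RNA. Without the offset that is added to each channel before logarithms, which draws the ratios of dim spots towards 0, its mean ratio was -0.78, and from the scanner's own processed signals it was -0.90.

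Plod1, which encodes the lysyl hydroxylase of the collagen helix, had log2 ratios of -0.06 on array 1 and 0.23 on array 2, with a mean of 0.09 ± 0.14. Its intensities in both RNAs overlapped, with 7.29 and 7.23 in control RNA and 7.23 and 7.46 in miR-181b RNA. Plod3 encodes a lysyl hydroxylase that also transfers sugars to the hydroxylated residue. Its brighter probe had ratios of -0.12 and 0.06, with a mean of -0.03 ± 0.09. The dimmer probe of Plod3 read -0.16 and 0.45, with a mean of 0.14 ± 0.30, so the probes of this gene differed in sign and neither kept 1 sign on both arrays. With the scanner's error of between 0.204 and 0.223 per array for these 3 probes, mean differences of their size were not resolved.

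Of the 7 measured probes, 6 had a lower ratio on array 1 than on array 2, and P4ha2 was the exception. Over all measured genes the share with a lower ratio on array 1 was 44.1%. The difference between the arrays holds any dye effect together with other technical variation, which 1 array per dye order cannot separate. The part of the dyes in the single-array values was not tested. In the dye contrast, Cy5 over Cy3 averaged over both arrays, 1.45% of measured genes passed 1.5-fold without a change of sign between arrays, and 0.251% of the genes that were never saturated. None of the 9 probes was saturated or marked as an outlier. Of the 5 measured family members 0 passed 1.5-fold in the dye contrast, but for P4ha1, P4ha2 and Plod2 this was fixed in advance. Genes whose miR-181b ratio keeps 1 sign on both arrays change sign in the dye contrast, so the 0 says nothing about dye effects in them.

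**Figure D3:**
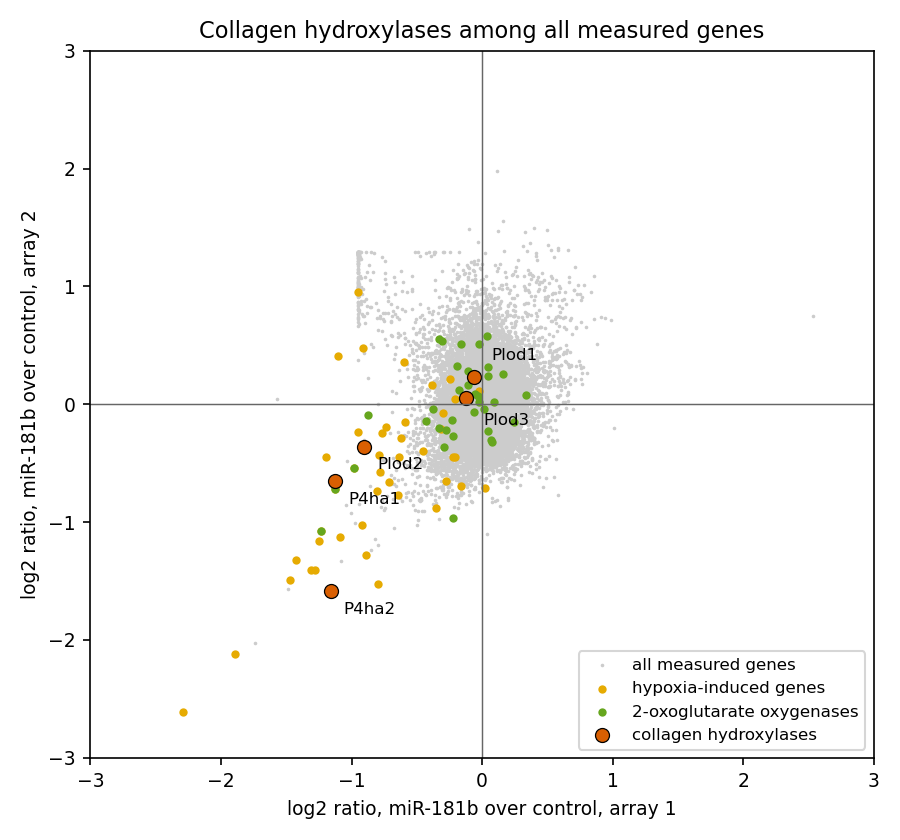
Log2 ratio of miR-181b over control on array 1 (horizontal axis) and array 2 (vertical axis) for all measured genes (grey), hypoxia-induced genes (yellow), other 2-oxoglutarate oxygenases (green) and the 5 measured collagen hydroxylases (orange, named); 3 genes lie outside the plotted range. P4ha2, P4ha1 and Plod2 lie in the lower left among hypoxia-induced genes, and Plod1 and Plod3 lie within the grey centre.

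Since P4ha1 and P4ha2 were both lower, their promoters were read from RefSeq (GRCm38.p6), together with that of Plod3, which was near 0. The table held promoters of 5 of the 6 genes, not of Plod2. The 250 bases before each start were searched on both strands for ACGTG and GCGTG, the core letters of the element that HIF binds, with overlapping matches counted separately. Matches are in capitals, in the strand of the gene, and only bases before the annotated first base of each gene are shown.
P4ha2, chr11:54100674-54100923, plus strand: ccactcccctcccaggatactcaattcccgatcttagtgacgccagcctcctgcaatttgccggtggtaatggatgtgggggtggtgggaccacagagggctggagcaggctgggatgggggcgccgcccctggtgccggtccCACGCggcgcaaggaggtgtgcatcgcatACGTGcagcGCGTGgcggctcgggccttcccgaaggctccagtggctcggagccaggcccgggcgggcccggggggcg
P4ha1, chr10:59323046-59323196, plus strand: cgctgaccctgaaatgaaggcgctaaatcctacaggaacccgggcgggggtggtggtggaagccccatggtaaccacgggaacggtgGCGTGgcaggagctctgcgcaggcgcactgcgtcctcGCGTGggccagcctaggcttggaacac
Plod3, chr5:136986769-136987018, plus strand: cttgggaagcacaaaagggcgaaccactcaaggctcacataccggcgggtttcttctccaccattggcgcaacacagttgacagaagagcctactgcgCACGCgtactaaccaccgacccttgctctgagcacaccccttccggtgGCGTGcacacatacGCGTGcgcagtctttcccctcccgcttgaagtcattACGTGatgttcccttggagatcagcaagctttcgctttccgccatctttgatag
P4ha2 held 3 matches, of which ACGTG at 78 to 74 and GCGTG at 69 to 65 bases before the start lie close together. P4ha1 also held 3, but the start used for its search lies past the gene's annotated first base, so only 151 of the 250 searched bases are shown. Its ACGTG on the other strand, 16 to 12 bases before the start, lies past that first base and outside the shown stretch. Plod3 held 4 matches, Plod1 held 1 and P4ha3 held 0. Either motif occurred in 38.6% of all promoters of this length and in 53% of those of measured genes, and at least 3 matches in 6.58% and 11.3%. Of the measured genes near 0, Plod3 thus held more matches than P4ha1 and P4ha2, and Plod1 fewer. For the lower gene Plod2 no promoter could be read. Binding of HIF, and any part of it in the ratios, was not tested.

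The beta subunit gene P4hb, whose product also serves as a general disulfide isomerase, was not lower on either array in the main processing. Its ratio was 0.01 on array 1 and 0.39 on array 2, with a mean of 0.20 ± 0.19. When the arrays were centred without the intensity-dependent correction, it was -0.208, beside a median of -0.205 over all genes. Serpinh1, the collagen-specific chaperone, was at 0.17 ± 0.01.

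Of 32 genes of collagen maturation, a list of prolyl 3-hydroxylases, chaperones, export factors, processing proteases and lysyl oxidases, 21 were measured. Past 1.5-fold, 0 were lower and 0 higher. On both arrays 10 were higher and 2 lower, against 24.5% higher and 27.4% lower among all measured genes, and the list's median was 0.10 (0.02 on array 1 and 0.18 on array 2). With arrays centred without the correction the balance turned, with 4 higher and 9 lower on both arrays (1584 and 9713 of all genes), and the median was -0.128, which is 0.077 above all genes. The largest ratios of the same sign on both arrays were those of the procollagen C-proteinase gene Bmp1 (0.47 ± 0.04, with another probe at -0.08), of Pdia3 (0.39 ± 0.15) and of Creld2 (0.38 ± 0.08, saturated). With centring alone Bmp1 was at 0.243, Pdia3 at -0.030 and Creld2 at -0.057, so the sign of the latter pair depended on the processing. Pdia3 and Creld2 encode general folding factors of the endoplasmic reticulum. Among 58 collagen chains and proteins with collagen domains, 27 were measured, with a median of 0.01. In the main processing 0 passed 1.5-fold in either direction, as with offset 0, scaling between the arrays or centring alone. With the scanner's ratio 1 was higher and 0 lower, and the deposited ratios gave the same counts. Examples from this list are Col3a1 (0.34 ± 0.15, with another probe at 0.04), Col5a3 (0.36 ± 0.05), Col11a1 (0.16 ± 0.06) and Col11a2 (-0.19 ± 0.16, with another probe at 0.00). These are all fibrillar collagen chain genes. Their mean log2 intensities were 7.87, 7.44, 7.07 and 9.13, and the offset draws the ratios of dim spots towards 0.

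The collagen hydroxylases were then set beside other oxygenases that use 2-oxoglutarate. Of 39 listed, 37 were measured, 4 were at least 1.5-fold lower and 0 higher, and their median was -0.003. The lower genes were Egln3 (-1.15 ± 0.08) and Egln1 (-0.92 ± 0.20, with another probe at -0.64), which encode HIF prolyl hydroxylases, the histone demethylase gene Kdm3a (-0.76 ± 0.22, its other probes at -0.60 and -0.46) and the RNA demethylase gene Alkbh5 (-0.59 ± 0.37, with another probe at -0.38). The remaining HIF prolyl hydroxylase gene, Egln2, was at 0.21 ± 0.05, and at -0.149 with centring alone. Scaling between the arrays left 3 lower genes, beside 0.478% of all measured genes. Centring without the correction gave 8, beside 5.17% of all measured genes, against 0.513% in the main processing. Of the 4 lower genes, 3 also stand in the list of hypoxia-induced genes, which shares 3 of its measured genes with this list. In that list 22 of 43 measured genes were at least 1.5-fold lower and 0 higher, 34 were lower on both arrays, and the median was -0.59. Its lowest ratios were those of the mitochondrial protein gene Bnip3 (-2.45 ± 0.16), the lactate transporter gene Slc16a3 (-2.01 ± 0.11), the pyruvate dehydrogenase kinase gene Pdk1 (-1.48 ± 0.01, with another probe at -1.68) and Ndrg1 (-1.37 ± 0.05). P4ha2 equalled the last of these. The list was written with earlier results of these arrays known.

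**Figure D4:**
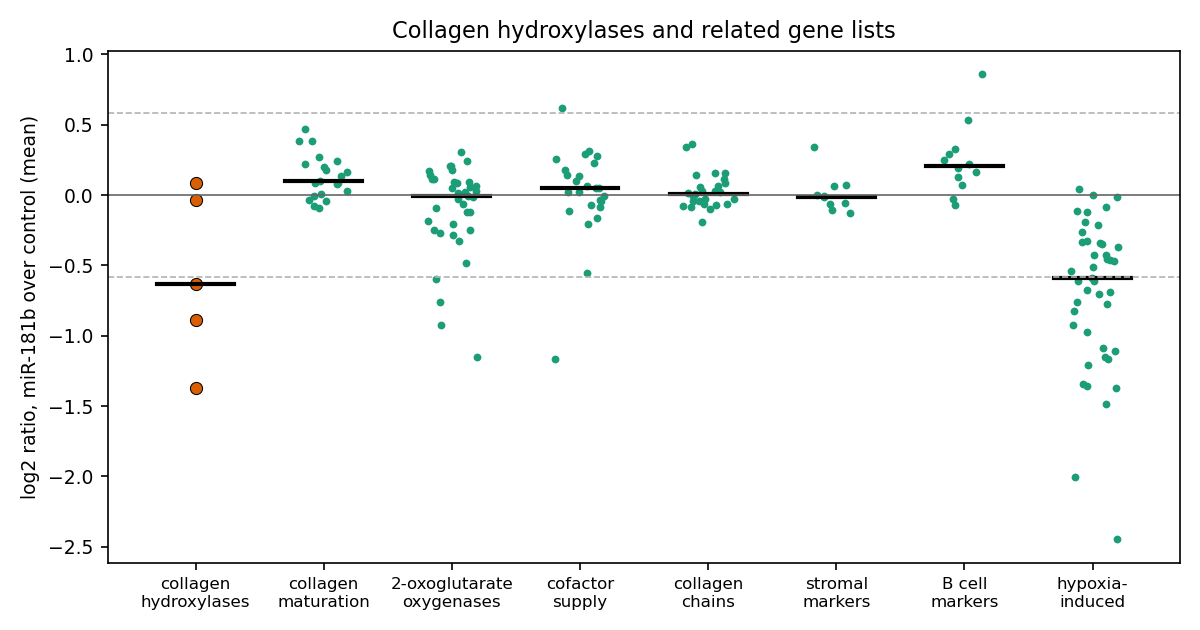
Mean log2 ratio of miR-181b over control (vertical axis) of each measured gene in the collagen hydroxylase family (orange) and in 7 related lists (green), with a black bar for the median and dashed lines at 1.5-fold. The family and the hypoxia-induced genes have medians of -0.63 and -0.59, and the other medians lie between -0.011 and 0.208.

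Genes for cofactor supply, which cover ascorbate and glucose transport, iron uptake and enzymes that make or use 2-oxoglutarate, were mostly near 0. Of 25 measured, 1 was at least 1.5-fold lower and 1 higher, against 0.513% and 0.82% of all measured genes. Their median was 0.05. The lower gene was Slc2a1, which also stands in the list of hypoxia-induced genes, and the higher was Ogdh. With scaling between the arrays 1 was lower and 0 higher, and with centring alone 2 and 0. The glucose transporter genes Slc2a1 and Slc2a3, whose products also carry dehydroascorbate, were at -1.16 ± 0.36 and -0.55 ± 0.05. Ogdh, which encodes a subunit of the dehydrogenase that consumes 2-oxoglutarate, was at 0.62 ± 0.51 with 0.11 on array 1 and 1.13 on array 2. The mitochondrial aminotransferase gene Got2 was at 0.29 ± 0.22, and at -0.104 with centring alone.

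For each lower member the 4 genes with the most similar pair of ratios were found by Euclidean distance over the 2 arrays. Nearest to P4ha1 were Egln1 (distance 0.068), Kdm3a (0.182), the phosphofructokinase gene Pfkl (0.218) and the kinase gene Dapk2 (0.262). Nearest to P4ha2 were the phosphoglucomutase gene Pgm1 (0.214), Prelid2 (0.229), the lipoprotein receptor gene Vldlr (0.241, with another probe at -0.50) and the cytochrome oxidase subunit gene Cox7a1 (0.271). Nearest to Plod2 were the ubiquitin ligase gene Neurl3 (0.055, although another of its probes was at -0.09) and the glycolysis genes Pgam1 (0.135, saturated), Tpi1 (0.135, saturated) and Pfkp (0.173). With 2 arrays such likeness rests on 2 values a gene.

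Collagen enzymes are abundant in stromal cells, so markers of other cell types were read as well. Of 16 fibroblast and stromal markers 10 were measured, 0 passed 1.5-fold in either direction and the median was -0.011. The listed markers Dcn, Pdgfra, Col5a2, Col6a3 and Fbn1 were not well above background in any channel. The 10 measured ones, among them Col1a2, Col3a1 and Pdgfrb, were well above background in every channel. All but Cdh11 (mean log2 intensity 11.27) were dim, however, at 7.87 for Col3a1, 7.39 for Col1a2 and 6.94 for Pdgfrb. The undetected probes of P4ha2 and P4ha3 lay between 6.07 and 6.32. The offset draws the ratios of such dim spots towards 0. The summed signal of the list over local background was 2485 and 4317 in control RNA and 4207 and 2267 in miR-181b RNA on arrays 1 and 2, in each array higher in Cy5. All 12 B cell markers were measured, with a median of 0.21, and the antigen receptor gene Cd79a was at 0.86 ± 0.70. That median was -0.17 on array 1 and 0.70 on array 2, and with centring alone -0.224, so the direction was not settled. Medians were -0.06 for T cell (9 measured), -0.02 for macrophage and monocyte (7) and 0.12 for endothelial markers (2), and 0 of these genes passed 1.5-fold in the main processing. Of the 7 macrophage and monocyte markers 2 were lower and 2 higher on both arrays, and their summed signal over local background was 2940 and 5018 in control RNA and 5286 and 2707 in miR-181b RNA. The lysozyme gene Lyz2 had the lowest ratio among them, with -0.42 on array 1 and -0.56 on array 2 and a mean of -0.49 ± 0.07. With the scanner's ratio, the deposited table, offset 0 or centring alone it was at least 1.5-fold lower, with means between -0.70 and -0.64. The other markers of that list included Csf1r, a growth factor receptor gene, at -0.26 ± 0.05 (other probes at 0.13 and 0.19) and the integrin gene Itgam at 0.27 ± 0.10 (another probe at 0.05). The part of such cells in the ratios of the collagen hydroxylases was not tested.

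**Figure D5:**
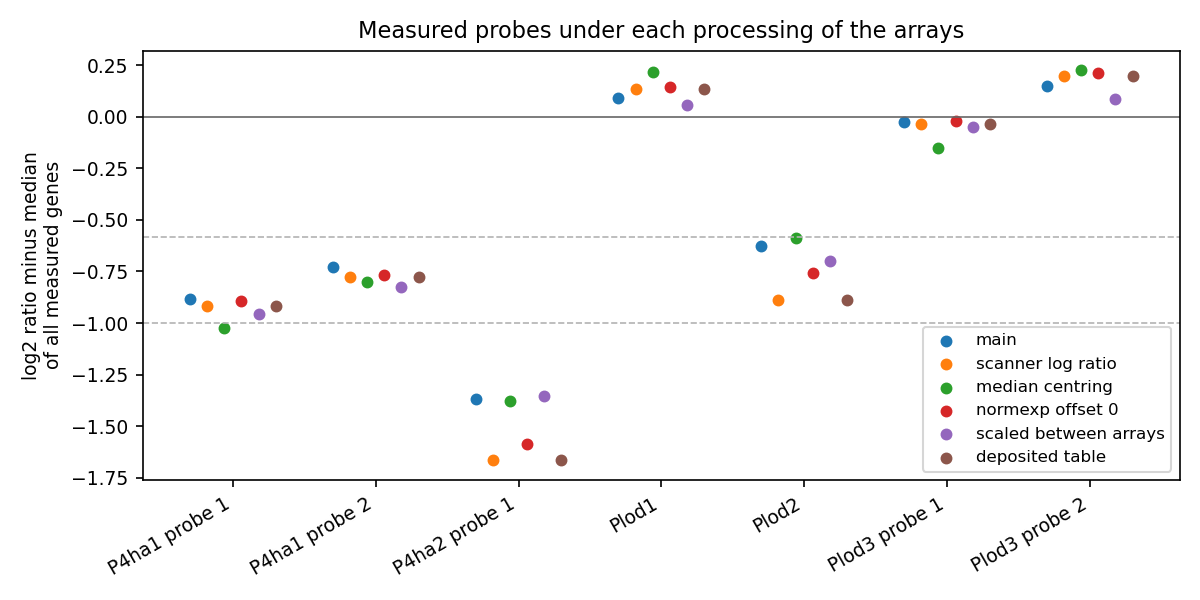
Log2 ratio minus the median of all measured genes (vertical axis) for the 7 measured probes under 6 ways of processing the arrays (colours; main is normexp with loess, and median centring omits loess), with dashed lines at 1.5-fold and 2-fold lower. The probes of P4ha1, P4ha2 and Plod2 lie at or below -0.589 under all 6, and those of Plod1 and Plod3 between -0.151 and 0.225.

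Across these ways of processing, the ratio of P4ha2 minus the all-gene median lay between -1.67 and -1.36, and that of the brighter P4ha1 probe between -1.03 and -0.88. For Plod2 the range was -0.89 to -0.59. Without the intensity-dependent correction the arrays as a whole shifted to -0.205, and 908 of all measured genes were then at least 1.5-fold lower and 6 higher, against 90 and 144.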

How the data were processed

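Both arrays carried total RNA of control and miR-181b B cells with exchanged dyes. RNA integrity numbers were 9.7 to 9.8, and 2 µg was labelled, per the labels. The deposited scanner files hold, per the file headers, output of Feature Extraction (Agilent, 9.1.3.1): mean spot intensity and median local background intensity (linear, uncorrected), processed intensities (background-subtracted, dye-corrected) and log10 ratios of Cy5 over Cy3 with their error. The authors' deposited table of log2 ratios states no scale. All 40901 probes with 1 usable spot matched log2 ratios of processed intensities within 0.0001 once the sign of array 2 was reversed and a constant allowed for (0.0011 and 0.0327), and column medians were -0.0626 and -0.0704. That match named its rows.

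Log2 ratios came from limma 3.58.1 (R 4.3.3): normexp background correction with offset 50, then loess with control spots at weight 0. Outlier spots (7 and 21) were left out, saturated spots kept (71 to 562 per channel) and spots of a probe averaged. Per channel, 64.7% to 67.7% of spots passed the background test. The brightest measured probe stood for a gene. Intensities of each RNA are after Aquantile scaling of loess values. Symbols came from RefSeq (GRCm38.p6) by accession for 22951 probes, symbol for 6659 and synonym for 3109, and 8455 kept the file's name. Members were matched by the file's own name. Named genes were all members, P4hb, Serpinh1, Egln1 to Egln3, up to 4 per list with the largest ratio of 1 sign on both arrays, and 4 nearest genes per lower member, clone and predicted names skipped. Members and lists were chosen with earlier results of these data known. The steps were tested on simulated arrays. Alternatives were the scanner's ratio, the deposited table, offset 0, centring without loess, scaling between arrays, each array alone, the mean of all probes and no filter on dim probes. The number of arrays limits the precision.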

Additional observations from a re-analysis of the deposited data

How the results depend on the processing

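The count of 3 family members at least 1.5-fold lower was also 3 with the scanner's ratio, the deposited table, offset 0, centring without loess, scaling between arrays, the mean of all probes and no filter on dim probes. The share of all measured genes past that rule differed, with 1.16% for the scanner's ratio, 1.08% for the deposited table and 0.786% for offset 0. It was 5.17% with centring and 0.478% with scaling, against 0.513% in the main processing. The count of members was 2 on array 2 alone, where Plod2 did not reach 1.5-fold, and 3 on array 1 alone. By construction it became 1 when 2-fold was asked for. The count past 2-fold, 1, became 2 with centring without loess, when P4ha1 joined P4ha2 and the whole array shifted to -0.205. Of all measured genes, 56 passed the 2-fold rule with that centring, against 17 in the main processing. Single arrays gave 1 to 2 members, and no share of all genes is given for single arrays. The count of 3 members lower on both arrays became 4 with that centring. Of all 17560 measured genes, 9713 were then lower on both arrays, against 4810 in the main processing. On a single array 3 to 5 members were lower, where the median of all measured genes was 0.006 (array 1) and -0.024 (array 2). Counts by sign alone thus say little about the members. The family's median moved from -0.63 to between -0.90 and -0.36 on single arrays and to -0.33 with P4ha3, which is not above background, included. Under alternatives that used both arrays, 35 of 35 probe values kept their sign and 3 moved by more than 1 SD of both arrays (P4ha2 to -1.68 with the scanner's ratio, P4ha1 to -1.23 and Plod3 to -0.36 with centring without loess). This SD is wider than the ± used above. P4ha2 also moved by more than its ± of 0.22, to -1.61 with offset 0 and to -1.66 with the deposited table. The cause of these shifts was not tested. No paired analysis was possible because both arrays hold the same pair of RNAs. Low signal limits Plod1, Plod2, the dimmer Plod3 probe and, in miR-181b RNA, P4ha2, and gave no value for P4ha3.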
